A study of Mus musculus with 2 samples.

Results

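The genes of the major histocompatibility complex (MHC) class II pathway were examined in single cells of the mouse colon lamina propria. The 10 members were taken by symbol from the feature lists of both libraries: the classical chains H2-Aa, H2-Ab1 and H2-Eb1, the invariant chain Cd74, the transactivator Ciita, the peptide editor chains H2-DMa, H2-DMb1 and H2-DMb2, and the chains of the editor's inhibitor, H2-Oa and H2-Ob. All 10 were found among 31053 features. Membership was set by symbol, with earlier results of these data known. The study asked how a long non-coding RNA bears on gut macrophages. The series has 1 wild-type (WT) library and 1 knockout (KO) library, whose mice lacked, by CRISPR-Cas9 deletion on the C57BL/6J background, a long non-coding RNA labelled LncRNA17Rik, which the study names lncLy6c. The mice were 8-week-old males pooled within a genotype. Both samples are labelled as gut, gut lamina propria and cd11b+, and the cells were taken from a Percoll gradient and stained for sorting. The study describes removal of dead cells with 7-AAD under its flow cytometry methods. No feature carries the name LncRNA17Rik, so the deletion itself was not checked here. With 1 library per genotype there is no replicate check of any difference between KO and WT, and every interval below is a 95% interval that covers counting error alone.

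MHC class II molecules carry peptides from endocytosed protein to the surface of antigen-presenting cells, where CD4+ T cells read them. An alpha and a beta chain pair in the endoplasmic reticulum around the invariant chain, which guides them to endosomes and blocks the groove until proteases trim it away. H2-DM then exchanges the remaining fragment for peptides, and H2-DO restrains H2-DM. Ciita does not bind DNA itself but assembles on factors held by the X and Y boxes of the promoters of these genes. In the colon, monocytes that enter the lamina propria lose Ly6C and gain class II as they become resident macrophages.

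After filtering, 2597 WT and 2514 KO cells remained with a median of 5073 and 6564.5 UMIs (unique molecular identifiers, each counting 1 captured RNA molecule) and 18994564 and 22331342 UMIs in all. No barcode was shared between the kept cells of the libraries. Of 20 clusters, 17 were named by markers. The classes used most here held the following cells in WT and KO: inflammatory monocyte-like 51 and 310, resident macrophage-like 126 and 116, intermediate (markers of both) 665 and 82, cDC1-like 210 and 355, cDC2-like 146 and 323, B cell-like 201 and 85. An unnamed cluster led by Retnla, Mgl2 and Ccl24 held 22 and 266. Its best match was the cDC2 list, with 4 of 9 markers raised, beside 1 monocyte and 2 resident macrophage markers. The cd11b+ label did not hold for every cell: T cell-like, B cell-like and epithelial-like cells were present, and Itgam, which encodes CD11b, stood at 37.5 counts per 1000000 UMIs of the class (CPM) in WT T cell-like cells against 262 CPM in intermediate cells.

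Of the members, 8 lie within 224335 bases of chromosome 17 in GRCm38, and Ciita lies on chromosome 16. From centromere to telomere, H2-Oa spans chr17:34092340-34095234, H2-DMa chr17:34119541-34139101, H2-DMb2 chr17:34143307-34151555, H2-DMb1 chr17:34153072-34160230, H2-Ob chr17:34238903-34254414, H2-Ab1 chr17:34257689-34269419, H2-Aa chr17:34282744-34287823 on the minus strand and H2-Eb1 chr17:34305867-34316674. Ciita spans chr16:10480059-10528418. Promoter sequence from RefSeq (GRCm38.p6) is shown for 6 of the 7 members whose 300-base promoter windows were read, those that held the X and Y letters in order, since these members differed widely in level between cell types. Capitals mark matches on the gene's own strand to GCAAC (the end of the X box), ATGATGC (an X2 core) and GATTGG (the Y box).
H2-Oa, chr17:34092285-34092350: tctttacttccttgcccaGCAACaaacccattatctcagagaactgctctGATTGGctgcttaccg
H2-DMb2, chr17:34145108-34145173: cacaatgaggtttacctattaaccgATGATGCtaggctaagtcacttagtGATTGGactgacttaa
H2-DMb1, chr17:34153079-34153144: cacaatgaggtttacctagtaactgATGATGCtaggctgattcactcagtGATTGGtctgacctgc
H2-Ob, chr17:34238797-34238862: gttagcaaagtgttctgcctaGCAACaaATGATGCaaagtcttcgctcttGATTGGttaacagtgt
H2-Aa, chr17:34287857-34287922 on the minus strand: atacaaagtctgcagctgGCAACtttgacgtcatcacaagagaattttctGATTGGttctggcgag
H2-Eb1, chr17:34305757-34305822: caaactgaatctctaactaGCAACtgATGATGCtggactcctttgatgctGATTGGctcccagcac

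The Y box letters began between 44 bases (H2-Oa) and 91 bases (H2-DMb2) before the RefSeq start site. The GCAAC letters began 29 to 32 bases before the Y box in the 4 promoters that hold them, and the ATGATGC letters 22 to 25 bases before it in the 4 that hold those. Read on both strands, GCAAC was in 35.2% of 32851 promoter windows of this length, ATGATGC in 2.46% and GATTGG in 16.1%, and an X letter group followed by GATTGG with starts 15 to 45 bases apart was in 0.536%. Neither of the windows of H2-DMa held the combination. The letters were chosen after these sequences had been seen, and a match is a description of the window.

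H2-Aa was highest in cDC2-like and then resident macrophage-like cells in both libraries, lower in B cell-like cells, and nearly absent from NK cell-like cells. In WT, H2-Aa stood at 9754 CPM (9603 to 9908) in cDC2-like cells, 8662 (8468 to 8859) in resident macrophage-like cells, 7712 (7597 to 7827) in cDC1-like cells and 7164 (7078 to 7251) in intermediate cells. The Retnla cluster, at 7527 (7146 to 7923), could not be placed apart from cDC1-like or intermediate cells. Mature DC-like cells followed at 6231 (5850 to 6630), B cell-like cells at 3863 (3727 to 4003) and inflammatory monocyte-like cells at 2442 (2279 to 2614). Eosinophil-like cells at 2185 (2011 to 2371) overlapped the monocyte interval, and NK cell-like cells stood at 73.1 (36.5 to 131), from 11 UMIs in 26 cells. In KO, H2-Aa stood at 9993 in cDC2-like and 9564 in resident macrophage-like cells. The beta chain H2-Ab1 had another order there, at 10891 in cDC2-like cells, 9633 in the Retnla cluster, 9112 in cDC1-like and 8566 in resident macrophage-like cells. For H2-Aa, monocyte-like cells were lower in that library, at 572 (544 to 601), below B cell-like cells at 4909 and intermediate cells at 4271.

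**Figure D1:**
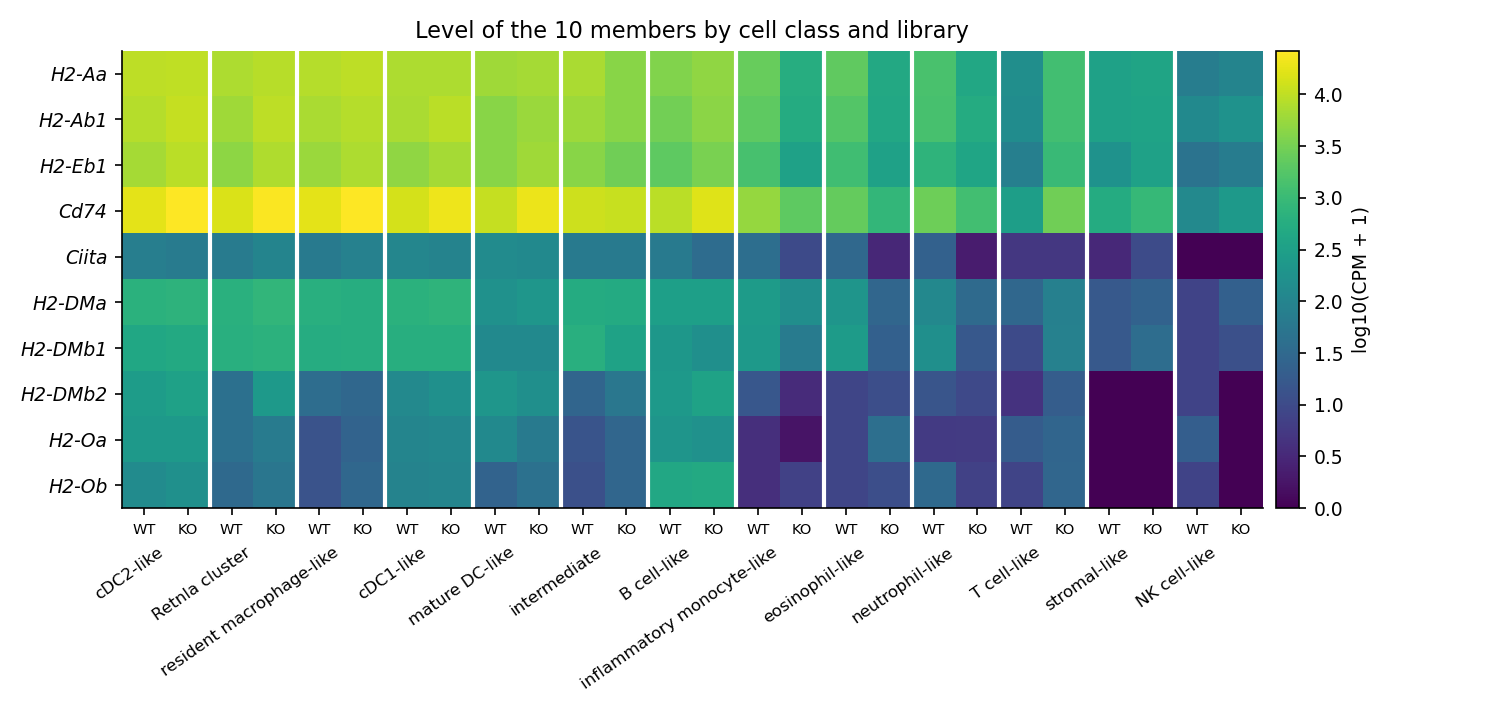
Level of the 10 members (rows) in 13 cell classes (columns), WT and KO side by side, coloured by log10 of CPM plus 1. The classical chains and Cd74 are bright in dendritic, macrophage and B cell-like classes and dark in NK cell-like cells, and H2-Oa, H2-Ob and H2-DMb2 are bright in fewer classes than H2-DMa and H2-DMb1.

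As a sum, the 10 members took 4.39% of all UMIs of WT cDC2-like cells and 5.81% of KO cDC2-like cells. In resident macrophage-like cells they took 4.06% and 5.36%, in intermediate cells 3.06% and 2.36%, in inflammatory monocyte-like cells 1.17% and 0.379%, and in NK cell-like cells 0.041% and 0.063%. Cd74, in CPM, was at 17184 in WT cDC2-like cells, 17600 in resident macrophage-like cells, 13563 in cDC1-like cells, 9359 in B cell-like cells and 5204 in monocyte-like cells. Its KO values in those classes were 26010, 26484, 20220, 16223 and 2123. So the KO level was the higher one in each of these classes except the monocyte-like cells.

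Ciita, on which transcription of the classical chains depends, was a low-count gene throughout, and its order did not follow that of the chains. In WT it was at 137 CPM (86.2 to 208) in mature DC-like cells, 106 (93.1 to 121) in cDC1-like, 75.5 (62.7 to 90.1) in cDC2-like, and 66.1 (49.4 to 86.7) in B cell-like cells. Resident macrophage-like cells had 63.8 (48.2 to 82.8) and intermediate cells 62.0 (54.2 to 70.6). The intervals of these last 4 classes overlap. No Ciita UMI was seen in the 26 WT and 41 KO NK cell-like cells, which allows up to 19.9 and 16.3 CPM (3 counts of the class total). A Ciita UMI was found in 41.8% of WT cDC2-like cells at full depth, with a median of 10686 UMIs. After each cell with at least 2000 UMIs was thinned to that number, the share was 15.3%, which shows how far it rests on depth.

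The H2-DM editor was widely present, while its inhibitor H2-DO and the second beta chain H2-DMb2 were higher in B cell-like and cDC2-like cells than in monocyte-like, intermediate and resident macrophage-like cells. In the Retnla cluster, H2-DMb2 was at 41.2 CPM in WT and 233 in KO, and H2-Oa at 41.2 and 69.6. H2-DMa was at 679 CPM in WT cDC2-like, 658 in cDC1-like, 609 in resident macrophage-like, 533 in intermediate, 317 in B cell-like and 267 in monocyte-like cells. H2-Ob was highest in B cell-like cells, at 441 (396 to 490) in WT and 490 (423 to 564) in KO, against 12.5 (6.25 to 22.4) and 28.5 (18.8 to 41.5) in resident macrophage-like cells. H2-Oa was at 203 and 175 in B cell-like cells, 242 and 236 in cDC2-like cells and 12.5 and 24.3 in resident macrophage-like cells. Mature DC-like cells combined 125 and 65.2 of H2-Oa with 25 and 44.5 of H2-Ob, so the H2-DO chains were not in a fixed ratio across classes.

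Per 100 UMIs of the H2-DM chains, the H2-DO chains had 82.6 (73.3 to 93.0) in WT and 79.9 (67.6 to 94.3) in KO B cell-like cells. The same ratio was 27.0 and 26.0 in cDC2-like, 14.6 and 14.1 in cDC1-like, and 2.08 (1.30 to 3.17) and 4.55 (3.36 to 6.05) in resident macrophage-like cells. The WT and KO intervals overlap in B cell-like and both cDC classes and do not in resident macrophage-like cells. H2-DMb2 made up 53.7% (48.4 to 58.9) of the H2-DMb UMIs in WT B cell-like cells and 69.0% (62.1 to 75.3) in KO, 38.7% and 41.0% in cDC2-like cells, 17.0% and 21.5% in cDC1-like cells, and 6.32% and 5.04% in resident macrophage-like cells. The H2-DM beta chains are similar paralogs: 27.2% of the 50-base stretches of the longest H2-DMb1 transcript also occur in H2-DMb2, and over its last 500 bases 20.4% do, while none of the last 500 bases of H2-DMb2 is shared at that length. The division of UMIs between them is therefore uncertain for part of the H2-DMb1 sequence.

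Among the monocyte-like, intermediate and resident macrophage-like classes of the main clustering, the summed classical chains differed most in inflammatory monocyte-like cells. There, all 3 chains were about 4-fold lower in KO. H2-Aa, the alpha chain, was at 2442 CPM in WT and 572 in KO, a log2 KO-to-WT ratio of -2.09 (-2.22 to -1.97). H2-Ab1, its beta partner, was at 2148 and 520, a log2 ratio of -2.05 (-2.18 to -1.92). H2-Eb1 was at 1382 and 335, also -2.05 (-2.21 to -1.88). Cd74 was less reduced, at 5204 and 2123 (-1.29, -1.37 to -1.22). Of the editor chains, H2-DMb1 was at 238 and 68.1 (-1.80, -2.19 to -1.41) and H2-DMa at 267 and 150 (-0.84, -1.17 to -0.49). Ciita had 13 UMIs in WT and 24 in KO, or 38.2 and 8.74 CPM (-2.13, -3.16 to -1.03). H2-DMb2, H2-Oa and H2-Ob had fewer than 20 UMIs over both libraries and were not read.

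Of the 7 members with at least 20 UMIs in monocyte-like cells, 6 were at least 2-fold lower in KO and none was 2-fold higher, against 8.64% of 7340 genes lower and 7.89% higher in the same cells. The median log2 ratio of those 7 was -2.01, and that of all genes -0.10. The class has 51 WT cells, and 5 of them held 47.1% of its classical chain UMIs, while the top 5 of 310 KO cells held 27.1%. Without those 5 cells of each library the summed chains were at 3644 and 1067 CPM, a log2 ratio of -1.77 (-1.87 to -1.67), against -2.07 with them. The class joined a cluster led by Chil3 (33 and 272 cells) and a smaller one. Within the Chil3 cluster the ratio was -1.11 (-1.24 to -0.99).

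Markers of other cell types moved with this difference. All 13 resident macrophage markers but Cd163 were detected in the monocyte-like cells of both libraries, with a summed level of 3311 CPM in WT and 2047 in KO, and 8 of 9 cDC2 markers summed to 951 and 614. The 9 neutrophil markers summed to 558 and 1716, and the plasma cell markers to 1001 and 162. Their part in the lower class II level was not tested. With 4000 variable genes in place of 2000, 125 WT and 431 KO cells fell in the class. The log2 ratio of the summed chains was then -0.88, and 3 of 10 members were past 2-fold. The all-gene shares above belong to the main clustering, so that count has no share beside it.

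**Figure D2:**
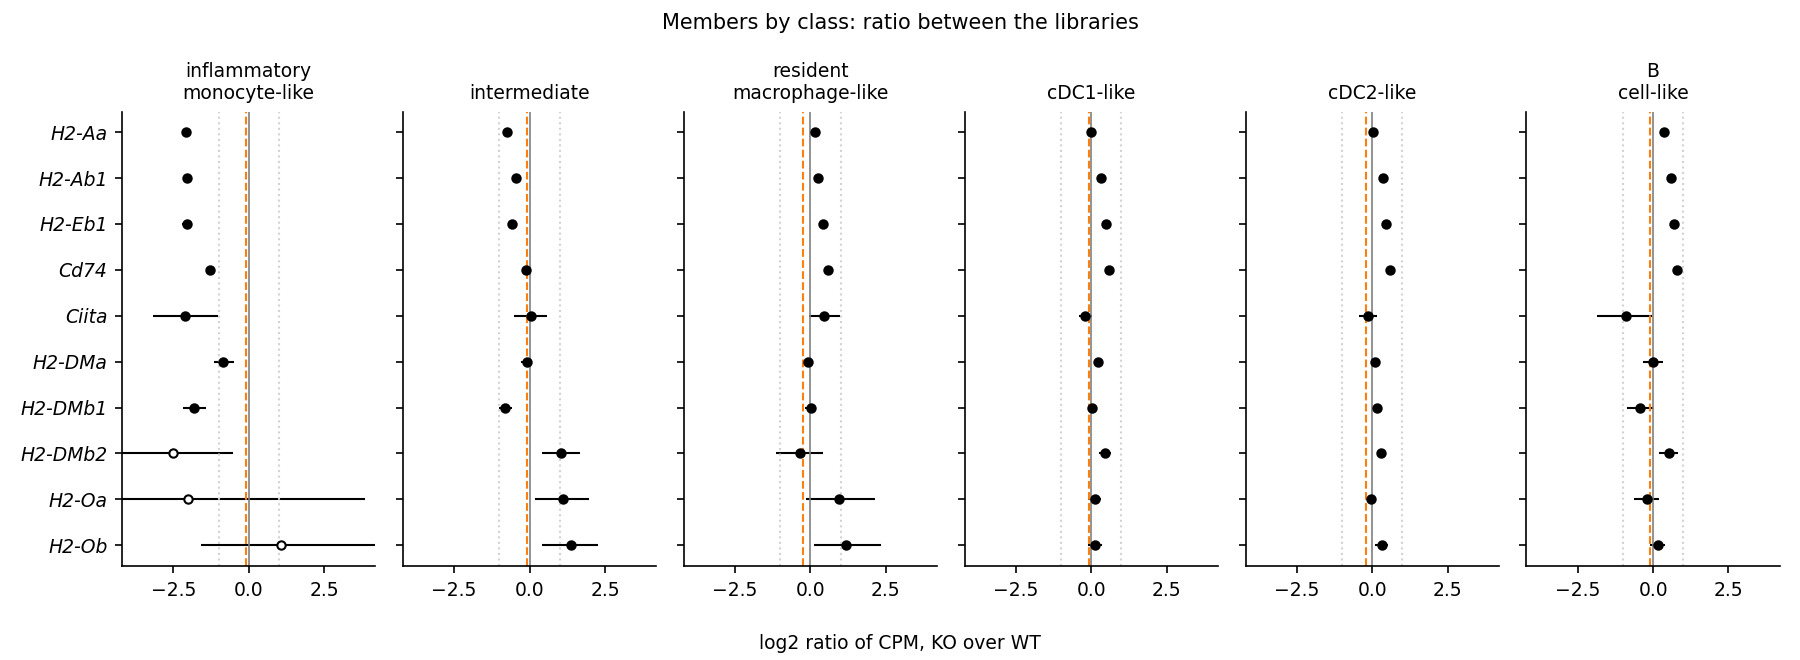
log2 ratio of KO to WT CPM on the x axis for each member (rows) in 6 cell classes (panels), with 95% intervals for counting error, the median of all genes as an orange dashed line and dotted lines at 2-fold, where open points rest on fewer than 20 UMIs and some intervals run past the axis. In inflammatory monocyte-like cells H2-Aa, H2-Ab1 and H2-Eb1 lie near -2, and in the cDC classes every member lies between -0.19 and 0.60.

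In resident macrophage-like cells the classical chains were slightly higher in KO. H2-Aa was at 8662 in WT and 9564 in KO (log2 ratio 0.14, 0.10 to 0.19), H2-Ab1 at 7223 and 8566 (0.25), H2-Eb1 at 5816 and 7679 (0.40) and Cd74 at 17600 and 26484 (0.59). H2-DMa and H2-DMb1 had log2 ratios of -0.09 (-0.26 to 0.09) and 0.00 (-0.18 to 0.18). Among the 10 members, only H2-Ob was past 2-fold, with 11 WT and 27 KO UMIs (1.19, 0.13 to 2.35), where 10.6% of all genes were 2-fold lower and 3.86% higher. The median over the members was 0.32 and over all genes -0.25. The resident macrophage markers themselves summed to 26009 and 26321 CPM, all 13 detected in both libraries. The cDC2 markers, all 9 detected, summed to 290 and 689 CPM in these cells and the monocyte markers to 536 and 349. Plasma cell markers summed to 1150 and 166. The part of all these markers in the difference was not tested. When each library was clustered alone the ratio of the summed chains in this class changed sign, from 0.25 to -0.035.

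Dendritic and B cell-like classes had no member past 2-fold. In cDC1-like cells, 0 of 10 members passed in either direction, where 2.57% of all genes were lower and 2.74% higher, and in cDC2-like cells 0 of 10, where 7.68% were lower and 4.15% higher. B cell-like cells also had 0 of 10, where 10.4% were lower and 1.85% higher. The members' medians were 0.17, 0.23 and 0.25, and the medians of all genes -0.09, -0.21 and -0.11. Ciita did not share the direction of the chains: it was at 75.5 and 68.0 CPM in cDC2-like cells (-0.15, -0.45 to 0.16), 106 and 92.9 in cDC1-like cells (-0.19, -0.42 to 0.03) and 66.1 and 35.5 in B cell-like cells (-0.90, -1.86 to -0.02, from 52 and 14 UMIs). The intervals in both cDC classes include 0. The summed chains had a log2 ratio of 0.26 in cDC1-like and 0.52 in B cell-like cells, which became 0.69 with every deposited barcode in the former and 0.16 with each library clustered alone in the latter. Markers of other cells differed beside these values: in cDC1-like cells monocyte markers summed to 2183 CPM in WT and 943 in KO and mast cell markers to 1000 and 0.172, and in cDC2-like cells monocyte markers summed to 1561 and 752. In B cell-like cells neutrophil markers summed to 1119 and 71.1 CPM, plasma cell markers to 1801 and 284 and monocyte markers to 1130 and 731. Their part in the ratios was not tested. The cDC1-like class joined a cluster led by Xcr1, with 186 WT and 254 KO cells, and a smaller one led by Pclaf. The Pclaf cluster made up a larger part of the class in KO than in WT. H2-Aa was at 8018 CPM in WT and 7488 in KO in the Xcr1 cluster, and at 6600 and 8002 in the Pclaf cluster. H2-Ab1 was higher in KO in both clusters. The part of this mix in the cDC1-like ratios was not tested.

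Within these classes H2-Aa, H2-Ab1, H2-Eb1 and Cd74 did not share 1 ratio. In cDC1-like, cDC2-like, resident macrophage-like, B cell-like and mature DC-like cells alike, the log2 ratio among these 4 genes was lowest for H2-Aa, then H2-Ab1, then H2-Eb1, and highest for Cd74. In cDC2-like cells, for example, the ratios were 0.03 (0.01 to 0.06), 0.36 (0.34 to 0.39), 0.46 (0.43 to 0.49) and 0.60 (0.58 to 0.62), and in B cell-like cells 0.35, 0.60, 0.71 and 0.79. Not every class had this order. In intermediate cells H2-Eb1 lay below H2-Ab1, and in the Retnla cluster H2-Eb1 lay above Cd74. The count of H2-Aa UMIs per H2-Ab1 UMI was 1.15 (1.13 to 1.18) for WT cDC2-like cells and 0.918 (0.906 to 0.929) for KO ones. It was 1.07 and 0.847 in cDC1-like cells, 1.20 and 1.12 in resident macrophage-like cells, and 1.28 and 1.08 in B cell-like cells. Cd74 UMIs per classical chain UMI were 0.690 and 0.865 in cDC2-like cells, 0.686 and 0.856 in cDC1-like cells, 0.811 and 1.03 in resident macrophage-like cells, and 1.04 and 1.26 in B cell-like cells. Over all kept cells the H2-Aa to H2-Ab1 ratio was 1.15 and 0.917, and the KO value was the lower one in the classes just given. In monocyte-like cells the intervals of this ratio overlapped, at 1.14 and 1.10, and they also overlapped in epithelial-like (0.844 and 0.916) and stromal-like cells (0.993 and 1.05). The same held in T cell-like (1.10 and 1.01), eosinophil-like (1.25 and 1.04), neutrophil-like (1.05 and 0.865), NK cell-like (0.579 and 0.545) and plasma cell-like cells (0.921 and 0.421). Genotype and library cannot be told apart here.

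The intermediate cells, which make up 25.6% of WT and 3.26% of KO cells, had lower chains in KO as well: H2-Aa at 7164 and 4271 (log2 ratio -0.75), H2-Ab1 at 5874 and 4284 (-0.46), H2-Eb1 at 4250 and 2867 (-0.57) and H2-DMb1 at 606 and 347 (-0.81, -1.03 to -0.59). None of the 10 members was 2-fold lower, where 9.34% of all genes were, and 3 were 2-fold higher, where 3.74% were. Those 3 were H2-DMb2 (97 and 29 UMIs, 1.06), H2-Oa (48 and 15 UMIs, 1.12) and H2-Ob (40 and 15 UMIs, 1.38), the members that were higher in B cell-like and cDC2-like cells above. The H2-Oa UMIs lay in 27 of 665 WT cells (4.06%) and in only 3 of 82 KO cells (3.66%), so the share of cells with H2-Oa was not higher in KO. Resident macrophage markers in intermediate cells summed to 6875 CPM in WT (13 of 13 detected) and 3472 in KO (12 of 13). Monocyte markers summed to 5117 and 5986 (11 of 11 in both), cDC2 markers to 746 and 805, and plasma cell markers to 1533 and 211. The part of all these markers in the lower chains was not tested. Of the 82 KO cells, 5 held 40.2% of the class's chain UMIs. Without the 5 highest cells of each library the summed chains were at 16858 CPM in WT and 8398 in KO.

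Because the border between monocytes, intermediate cells and macrophages depends on the clustering, the 3 classes were also pooled, as 842 WT and 508 KO cells. Over these, 3 of 10 members (H2-Aa, H2-Ab1 and H2-DMb1) were 2-fold lower, where 5.66% of all genes were, and none was 2-fold higher, where 2.99% were. The pool held another mix in each library: 665 of the WT cells were intermediate and 310 of the KO cells monocyte-like. The summed chains were at 17292 CPM in WT and 8148 in KO, a log2 ratio of -1.09 (-1.11 to -1.07). It was -0.51 at clustering resolution 0.5 and -0.45 with each library clustered alone. The ratio of -1.09 leaves out the unnamed Retnla cluster, whose markers did not place it among monocytes, macrophages or dendritic cells. The cDC2 marker Cd209a was at 201 CPM in its WT and 530 in its KO cells. The resident macrophage marker C1qa was at 731 and 425. Values with this cluster counted in are therefore those of a wider pool. In that cluster H2-Aa was at 7527 and 9002, H2-Ab1 at 6121 and 9633 and Cd74 at 14997 and 25232. H2-DMb2 differed most there. It had 8 UMIs in the WT cells (41.2 CPM, 17.8 to 81.2) against 813 in the KO cells (233 CPM, 217 to 249), and the log2 ratio was 2.50 (1.51 to 3.72). Counted in, its 22 WT and 266 KO cells brought the ratio to -0.072 (-0.084 to -0.059). Over all kept cells of every class the summed chains were at 10229 and 19592.

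Single cells spread differently in each class. Each cell with at least 2000 UMIs was thinned to that number so that depth did not set the count, and shallower cells were left out. UMIs of the 3 classical chains were then summed per cell. In cDC2-like cells the lowest cell had 22 chain UMIs, the median 50 and the highest 91 in WT, and 19, 60 and 123 in KO, so no cell was without class II. The cDC1-like cells ran from 0 over 42 to 81 in WT and from 0 over 46 to 181 in KO. Resident macrophage-like cells ran from 1 over 41 to 90 in WT and from 0 over 51 to 138 in KO. The coefficient of variation (SD over mean) was 0.289 and 0.287 in cDC2-like, 0.414 and 0.414 in cDC1-like and 0.468 and 0.480 in resident macrophage-like cells, nearly equal between the libraries in each.

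Monocyte-like cells were of another kind, with most cells near 0 and a tail of high ones. In WT, 49 cells with enough UMIs ran from 0 over a median of 2 to 71, and 69.4% had fewer than 10. In KO, 291 cells ran from 0 over a median of 0 to 49, and 92.1% had fewer than 10. The WT 90th percentile was 36.4 and the KO one 6, so the libraries differed in the tail, while NK cell-like cells, which should lack class II, had at most 2 and 3. Intermediate cells ran from 0 over 32 to 96 in WT, with 15.5% under 10, and from 0 over 12 to 76 in KO, with 49.1% under 10. The Retnla cluster ran from 6 over 35 to 60 in its 22 WT cells and from 0 over 51 to 191 in 255 KO cells.

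**Figure D3:**
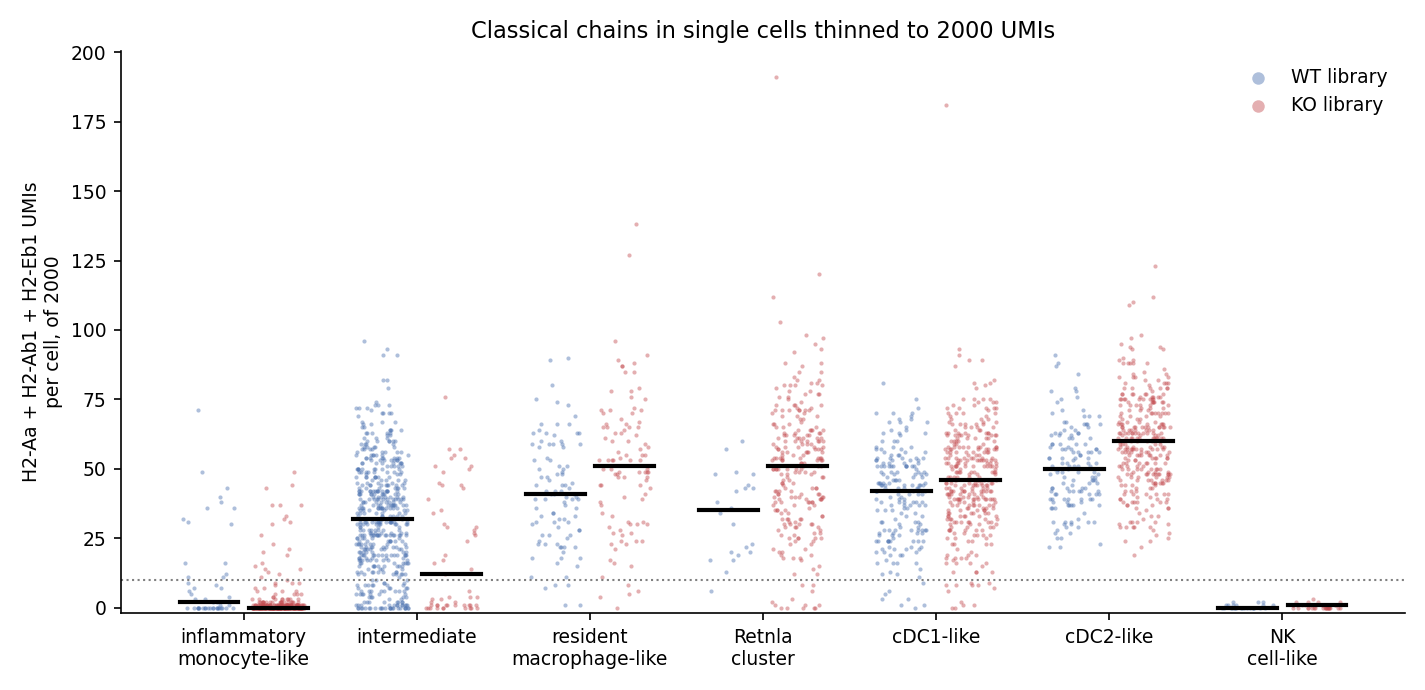
UMIs of H2-Aa, H2-Ab1 and H2-Eb1 together in each cell after thinning to 2000 UMIs, by cell class and library, with bars at the medians and a dotted line at 10. The cDC2-like cells all lie above the line, NK cell-like cells reach at most 3, and the monocyte-like cells lie mostly below the line, 69.4% of them in WT and 92.1% in KO.

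Ly6C and class II are among the surface proteins by which the study gates resident macrophages of the colon, so their genes were read in the same cells. Of the 842 WT and 508 KO monocyte-like, intermediate and macrophage-like cells, 667 and 449 were deep enough to be thinned, so a larger part of the WT cells was left out. Of the cells thinned, 80 of 667 (12%) in WT and 177 of 449 (39.4%) in KO had a Ly6c2 UMI and fewer than 10 chain UMIs. Ly6c2-positive cells with 10 or more chain UMIs were 213 (31.9%) in WT and 12 (2.67%) in KO. Cells with neither were 6.0% and 27.6%, and Ly6c2-negative cells with high class II were 50.1% and 30.3%. Cells with both Ly6c2 and high class II thus had the larger share in the WT library. With the Retnla cluster counted in, the KO share with Ly6c2 and low class II was 25.3%. Ly6c2-negative, class II-high cells were then 353 of 689 in WT and 374 of 704 in KO, so the lower KO share of that state was no longer seen. Cells with 8 to 11 chain UMIs numbered 22 (3.30%) in WT and 8 (1.78%) in KO. The WT share with Ly6c2 and low class II still moved with the limit. It was 7.80% at a limit of 5 chain UMIs and 18.1% at 20, and the KO share 37.9% and 40.3%. As background at the same depth, Ly6c2 was detected in 1.18% of 169 WT and 0% of 84 KO B cell-like cells and in 0.694% and 0.625% of cDC2-like cells. The share was larger in cDC1-like cells, at 15.9% of 195 WT and 2.33% of 343 KO cells, in T cell-like cells (6.75% and 7.48%), in neutrophil-like cells (7.41% and 8.94%), in NK cell-like cells (2 of 26 and 11 of 40), in WT plasma cell-like cells (84 of 177, or 47.5%) and in the few eosinophil-like cells deep enough (10 of 23 and 1 of 27). Plasma cell-like cells numbered 189 in WT and 4 in KO, with Ly6c2 at 1061 and 1949 CPM. In the monocyte-like, intermediate and macrophage-like cells themselves Ly6c2 was detected in 43.9% of WT cells (40.1 to 47.8) and 42.1% of KO cells (37.5 to 46.8), and with the Retnla cluster counted in, in 43.0% (39.2 to 46.8) and 27.6% (24.3 to 31.0). The intervals overlap without that cluster and not with it. The part of free Ly6c2 RNA in the Ly6c2-positive, class II-high count was not tested.

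Among Ly6c2-positive cells alone, 213 of 293 (72.7%, 67.2 to 77.7) in WT and 12 of 189 (6.35%, 3.32 to 10.8) in KO had high class II. Different classes held these cells: 256 of the 293 WT cells were intermediate and 163 of the 189 KO cells were monocyte-like. Within intermediate cells the shares were 77.3% (71.7 to 82.3) and 28% of 25 cells (12.1 to 49.4), and within monocyte-like cells 31.3% of 32 cells and 2.45% (0.673 to 6.16). Counting the Retnla cluster in left this split nearly as it was, at 72.6% and 8.25%. With Ccr2, the chemokine receptor by which monocytes leave the marrow, 80.2% of positive WT cells and 20.8% of positive KO cells had high class II, and with the Retnla cluster 80.6% and 47.1%. With C1qa, a complement gene of resident macrophages, 94.6% (91.6 to 96.8) of positive WT cells and 92.9% (86.5 to 96.9) of positive KO cells had high class II, so those intervals overlap. As background, C1qa was detected in 2.96% of WT and 3.57% of KO B cell-like cells and in 11.1% and 1.70% of neutrophil-like cells. It was also in 9 of 23 and 2 of 27 eosinophil-like cells. Ccr2 was in 5.92% and 1.19% of B cell-like and 11.1% and 1.28% of neutrophil-like cells. For eosinophil-like cells that was 10 of 23 and 0 of 27. Among C1qa-negative cells the shares were 69.4% and 12.8%, or 70.1% and 40.0% with the Retnla cluster. Of the Ly6c2-positive, class II-high WT cells, 198 were intermediate cells, 10 monocyte-like and 5 resident macrophage-like, and in KO 7 were intermediate, 4 monocyte-like and 1 resident macrophage-like.

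**Figure D4:**
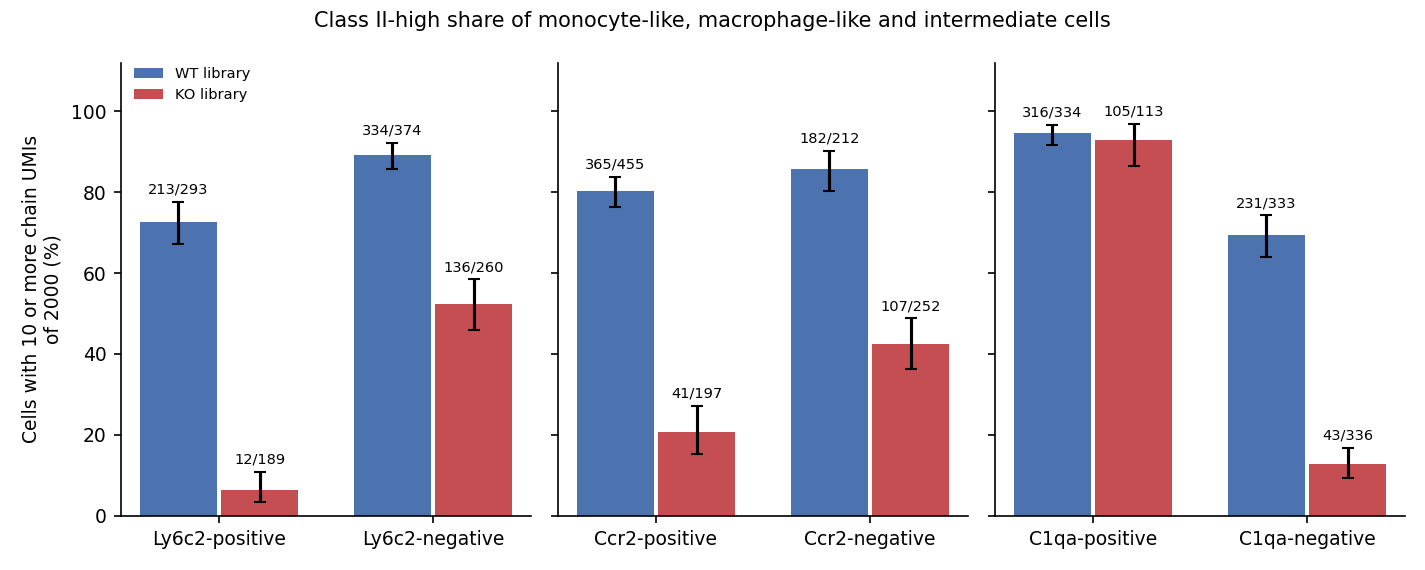
Percent of monocyte-like, intermediate and macrophage-like cells with 10 or more classical chain UMIs of 2000, among cells with and without a UMI of Ly6c2, Ccr2 or C1qa, for the WT and KO libraries, with 95% binomial intervals and cell counts. The C1qa-positive bars are alike at 94.6% and 92.9%, and the Ly6c2-positive bars stand at 72.7% and 6.35%.

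H2-DMb1, H2-DMa and Ciita were detected more often in class II-high than in class II-low cells of both libraries. In WT, a UMI of H2-DMb1 was found in 71.7% of class II-high and 25.8% of class II-low cells, and in KO in 54.1% and 7.64%. H2-DMa was found in 62.0% and 26.7% in WT and in 65.5% and 22.3% in KO. Ciita was found in 13.5% and 4.17% in WT and in 11.5% and 1.66% in KO. Across the 667 WT and 449 KO cells, Spearman's coefficient was 0.73 and 0.85 between H2-Aa and H2-Ab1, 0.80 and 0.84 between H2-Ab1 and Cd74, and 0.36 and 0.41 between the summed chains and H2-DMa. It was -0.26 and -0.45 between the chains and Ly6c2 and 0.40 and 0.70 between the chains and C1qa. These cells share 1 library each and mix several classes, so the coefficients are given as descriptions. Ciita, with 0.08 and 0.25, has too few UMIs per cell for its coefficient to be read.

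Class II chains were also counted in T cell-like cells and granulocyte-like cells. In T cell-like cells, 7 of 8 members with enough UMIs were at least 2-fold higher in KO and none was lower, where 13.5% of all genes were lower and 4.67% higher, and H2-Aa was at 152 and 1206 CPM. In KO, 5 of the 109 cells held 84.9% of 2439 chain UMIs, and in WT 5 of 241 held 32.4% of 534. The median cell had 220 chain CPM in WT and 291 in KO. Resident macrophage markers in these cells summed to 126 CPM in WT, with 12 of 13 detected, and 377 in KO, with 13 of 13. The class also held another mix of cells in each library: NK cell markers summed to 10477 and 129 CPM, plasma cell markers to 5105 and 122, mast cell markers to 868 and 0, cDC2 markers to 1044 and 542, and mature DC markers to 493 and 712. The part of these markers' cells or RNA in the difference was not tested.

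Neutrophil-like cells had 5 of 6 members 2-fold lower in KO and none higher, where 15% of all genes were lower and 5.81% higher, with H2-Aa at 1438 and 456. The top 5 cells held 68.3% of the chain UMIs in WT and 65.8% in KO, the median cell had 431 and 423 chain CPM, and resident macrophage markers summed to 1255 and 426. Eosinophil-like cells had 6 of 7 members lower and 1, H2-Oa, higher, where 8.67% of all genes were lower and 7.75% higher, with H2-Aa at 2185 and 471. They were shallow, with medians of 795 and 971 UMIs, the top 5 cells held 42.7% and 38.7% of the chain UMIs, and resident macrophage markers summed to 1687 and 812. So in both granulocyte-like classes macrophage markers were lower in KO beside the class II genes, and their part in the difference was not tested.

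For 28 other genes of the pathway found in the files, 2-fold differences were counted in the same way. Eosinophil-like cells had 8 of 20 lower and 2 higher, where 8.67% of all genes were lower and 7.75% higher. Neutrophil-like cells had 6 of 19 lower and 0 higher, where 15% were lower and 5.81% higher. T cell-like cells had 2 of 24 lower and 3 higher, where 13.5% were lower and 4.67% higher. B cell-like cells had 3 of 25 lower and 0 higher, where 10.4% were lower and 1.85% higher. The 3 pooled classes had 3 of 27 lower and 0 higher, where 5.66% were lower and 2.99% higher. In monocyte-like cells 4 of 24 tested were lower in KO, where 8.64% of all genes were, and 0 higher. Among them were Irf8, a factor of monocyte and dendritic lineages, at 252 and 107 CPM (log2 ratio -1.23), Socs1, an inhibitor of cytokine signalling, at 49.9 and 19.7 (-1.34), and Lgmn, an endosomal protease, at 790 and 269 (-1.55). Their list's median was -0.17, near that of all genes. In resident macrophage-like cells 4 of 26 were lower, where 10.6% of all genes were, and 0 higher, among them the promoter factors Rfxap (28 and 8 UMIs, -1.92) and Nfyb (15 and 5 UMIs, -1.69), and March1, a ubiquitin ligase that sends class II to degradation (56 and 29 UMIs, -1.06).

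In cDC2-like cells 3 of 27 were lower, where 7.68% of all genes were, and 0 higher, among them Socs1 at 27.2 and 12.4 CPM (-1.13) and March1 (23 and 28 UMIs, -1.34). In cDC1-like cells 2 of 27 were lower, where 2.57% of all genes were, and 0 higher, among them H2-Eb2, a second E beta gene (15 and 13 UMIs, -1.58). Intermediate cells had 2 of 27 lower, where 9.34% of all genes were, the proteases Ctsl and Lgmn, at 217 and 99.9 and at 1698 and 565. The invariant chain protease Ctss had log2 ratios below 2-fold in monocyte-like (-0.71), resident macrophage-like (-0.78), cDC1-like (-0.75) and cDC2-like cells (-0.31). In eosinophil-like and neutrophil-like cells it was at least 2-fold lower in KO.

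Over 18 profiles (9 classes in each library, which share their library's depth and free RNA), the members' levels tracked the summed chains with Pearson coefficients of 0.981 for Cd74, 0.950 for H2-DMa, 0.947 for H2-DMb1, 0.919 for Ciita, 0.734 for H2-DMb2, 0.542 for H2-Ob and 0.536 for H2-Oa. Outside the members and among 8099 genes, those most like the chains were Cd83 at 0.886, a surface protein that shields class II from degradation, Fgd2 at 0.885, Zfp667 at 0.850, Ppfibp2 at 0.842 and Kynu at 0.824. Within resident macrophage-like cells, the genes among the 20 most positively related to the chains in both libraries included Cd52 (Spearman coefficients of 0.42 in WT and 0.34 in KO), Psap (0.38 and 0.33) and Rpl23 (0.31 and 0.32). Those among the 20 most negatively related in both were Junb, F13a1, BC005537, Klf2 and Ier5, from -0.29 to -0.39. In monocyte-like cells Etv3 alone met the rule (0.50 and 0.22), in cDC2-like cells Rps27 (0.31 and 0.21) and, negatively, mt-Cytb (-0.26 and -0.22). Coefficients of this size in sparse counts are no finding by themselves.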

How the data were processed

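The deposited matrices hold whole-number UMI counts per gene and barcode, made by the authors' pipeline (Cell Ranger 3.0.2 per the file headers, mm10 and Seurat 4 per the submitters' notes). They hold 3185 WT and 3020 KO barcodes (22191774 and 23384895 UMIs), fewer than the cell numbers the study gives for each genotype. Following the study's filter, cells with 200 to 6000 genes and at most 15% mitochondrial UMIs were kept (18.5% and 16.8% removed). The study clustered with DESC. Here, both libraries were clustered together with scanpy 1.11.5 and leidenalg 0.10.2 on Python 3.11.15 (2000 variable genes without the members and the pathway list, 30 components, 15 neighbours, resolution 1). A cluster was named from marker lists when at least 3 markers were raised 2-fold over the other cells. A cluster with 50% or more of both the monocyte and the macrophage markers raised was called intermediate, and ties stayed unnamed, rules set after the first clusters had been seen. Clusters rebuilt in this way may differ from the study's. Unnamed cells other than the Retnla cluster made up 6.55% of WT and 2.90% of KO cells. Scrublet called 0 WT and 4 KO doublets (0.159%), too few for the call to have worked, so doublets were not removed and only an alternative leaves out the cells with the top 3% of scores.

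The counts of each class were added up within a library and expressed as CPM (UMIs per 1000000 UMIs of the class) with exact Poisson intervals. KO-to-WT ratios have exact conditional binomial intervals, and shares have Clopper-Pearson intervals (scipy 1.17.1). UMIs from transcript 3′ ends were not divided by length. Members with at least 20 UMIs over both libraries were counted past 2-fold after adding 1 CPM. No test was run across libraries. In summed counts, fewer expressing cells and less RNA per cell cannot be told apart, which is why cells were also thinned to 2000 UMIs. Ratios were also tried on simulated counts, but no outcome is given here and nothing is drawn from that step.

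The genes named are the 10 members, pathway genes past 2-fold in monocyte-like, macrophage-like or cDC classes with the exception of Ctss, which was chosen after its values were seen, the 5 genes most like the summed chains across profiles and those among the 20 most like them within cells of both libraries. H2-Ea-ps and Ifi30 of the pathway list were not used here. The members and lists were chosen with earlier results of these data known. Some genes that these rules name are not reported here.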

Additional observations from a re-analysis of the deposited data

Results flagged for a closer look

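The log2 KO-to-WT ratio of the summed classical chains had opposite signs in different cell classes of the same 2 libraries, among the 9 classes with at least 50 cells in each. It was negative in inflammatory monocyte-like (-2.07), eosinophil-like (-2.02), neutrophil-like (-1.38) and intermediate cells (-0.60). It was positive in T cell-like (3.19), B cell-like (0.52), cDC2-like (0.27), cDC1-like (0.26) and resident macrophage-like cells (0.25). With 1 library of each genotype, the difference between classes was not tested. In T cell-like cells the sum rested on 5 KO cells, and without the 5 highest cells of each library the levels were 258 CPM in WT and 589 in KO.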

How the results depend on the processing

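Under the alternatives, of which those leaving out the 5 highest cells, moving the intermediate cells or the Retnla cluster, or splitting the monocyte-like clusters were chosen after seeing the data, the log2 ratio of the summed chains was recomputed in monocyte-like, resident macrophage-like, cDC1-like, cDC2-like and B cell-like cells and the 3 pooled classes, and kept its sign in these except in resident macrophage-like cells with each library clustered alone. In intermediate, eosinophil-like, neutrophil-like and T cell-like cells only the levels without the 5 highest cells were computed. In monocyte-like cells (-2.07) it was -1.90 with every deposited barcode, -2.41 with a stricter cell filter, -2.16 at resolution 0.5, -2.33 at resolution 2, -2.70 with each library clustered alone, -1.69 with the members in the clustering, -0.88 with 4000 variable genes, -1.79 as a mean over cells, -1.77 without the 5 highest cells, -2.42 with intermediate cells counted in and -1.11 in the Chil3 cluster. In resident macrophage-like cells (0.25) those settings gave 0.20, 0.22 (strict), 0.22 (resolution 2), -0.035 (alone), 0.38 (members in), 0.21 (mean), 0.31 (without 5) and 0.19 with intermediate cells, and naming by the highest marker score 0.15. For the 3 classes together (-1.09) they gave -1.19, -1.02, -0.51 (resolution 0.5), -0.45 (alone), -1.07 (members in), -0.75 (4000 genes), -0.91 (mean) and -1.18 (without 5), with -0.61 by marker score, -1.06 without mitochondrial, ribosomal protein and immunoglobulin genes and -0.072 with the Retnla cluster. In cDC2-like cells (0.27) they gave 0.31 (strict), 0.30 (resolution 0.5), 0.29 (resolution 2), 0.41 (alone), 0.25 (members in), 0.30 (marker score), 0.30 (without those genes) and 0.25 (mean). In cDC1-like cells (0.26) they gave 0.69 (every barcode), 0.48 (strict), 0.61 (resolution 0.5), 0.43 (resolution 2), 0.45 (alone), 0.28 (members in), 0.53 (4000 genes), 0.37 (marker score), 0.28 (without those genes) and 0.17 (mean). In B cell-like cells (0.52) they gave 0.59 (strict), 0.16 (alone), 0.61 (top Scrublet scores left out), 0.59 (without those genes) and 0.60 (without 5). The count of members past 2-fold in monocyte-like cells (6 of 7) was 3 of 10 with 4000 genes and 4 of 7 in the Chil3 cluster. It was 8 of 9 at resolution 2, and 9 of 10 with the stricter filter or with intermediate cells counted in. The all-gene shares belong to the main clustering alone. The counts under these other settings have no share beside them, so they cannot be set against all genes. The KO share of Ly6c2-positive, class II-low cells (39.4%) was 30.1% at resolution 0.5, 27.4% alone, 33.6% with 4000 genes, 32.3% with cells thinned to 1000 UMIs and 25.3% with the Retnla cluster, and the WT share (12%) was 7.80% with a limit of 5 chain UMIs and 18.1% with 20. The cause of these shifts was not tested. No paired analysis was possible because each genotype has 1 library. Depth limits H2-DMb2, H2-Oa and H2-Ob in monocyte-like cells, with 12, 3 and 18 UMIs.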
